A study of Mus musculus with 5 samples.

Results

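Nuclear-encoded genes of the respiratory chain and ATP synthase were examined in 5 RNA sequencing libraries of Ba/F3 cells. They were chosen by symbol alone, as all genes whose names begin with NDUFA, NDUFB, NDUFC, NDUFS, NDUFV, UQCR, ATP5 or COX4 to COX8, together with SDHA, SDHB, SDHC and SDHD, unless the description in the table says pseudogene. This gave 102 of the 50867 genes in the table, and 149 pseudogene rows with such names were left out. Of the 102 members, 46 were assigned to complex I, 4 to complex II, 9 to complex III, 19 to complex IV and 20 to complex V. The remaining 4, the noncoding NDUFA6-DT, NDUFB2-AS1 and NDUFV2-AS1 and a row named COX7BP1, had 0 counts in every library.

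Ba/F3 is a mouse pro-B cell line that grows on interleukin-3. Each library came from Ba/F3 cells infected with a different lentivirus, and the labels name them PMSCV, S_PXT1, S_PXT1_K118R, WT and WT_K118R. PMSCV is the name of a retroviral vector, and its library is taken here as the reference. K118R is the notation for a lysine to arginine substitution, and the labels spell out neither S nor WT. Each group held 1 library, with no replicate, no stated time after infection and no stated clone or pool, so every difference below is between 2 libraries and has no replicate check.

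Complexes I to IV of the inner mitochondrial membrane pass electrons from NADH and succinate to oxygen, and complexes I, III and IV pump protons as they do so. Complex V, the ATP synthase, uses the returning protons to make ATP. A few subunits are encoded on the mitochondrial chromosome and the rest, described here, are made in the cytosol from nuclear genes and imported. Dividing cells of the blood lineages use this chain for ATP and for aspartate and nucleotide synthesis.

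The table names genes by human identifiers although the labelled cells are mouse. A mouse transcript may be counted well or poorly on a human model, so each gene is compared with itself across libraries. The 5 libraries held between 250409 and 351693 counts, and a member level is given as a count or as CPM, the count relative to the scaled library size. PXT1, the gene in 2 of the labels, had 0 counts in every library, so it gave no check of them. Of 13 early B lineage and Ba/F3 markers, SPI1 had 113 to 173 counts in 4 libraries and 1 in WT_K118R. CD79A, CD79B, VPREB1, IGLL1, RAG1 and the interleukin-3 receptor gene IL3RA had 0 counts in every library, and each of the others had at most 6. Whether the counts come from the labelled cells was not tested. Markers of other tissues divided the libraries. The 7 squamous epithelial markers were at 0 in S_PXT1 and S_PXT1_K118R and summed to 252, 938 and 371 counts in PMSCV, WT and WT_K118R. The 4 plasma cell markers summed to 636, 425 and 22 counts in those 3 libraries against 2 and 2. The 8 muscle markers summed to 67, 277 and 12 against 1 and 0. In PMSCV and WT they were chiefly the smooth muscle gene MYH11, with the striated markers MYH7, CKM and TNNT2 at 0. The 4 prostate markers summed to 71, 78 and 92 against 0 and 0. Nearly all of these were KLK2 and KLK3, with MSMB at 0 in every library and ACP3 at 1 in WT alone. In WT_K118R the squamous counts were nearly all KRT5, KRT6A and KRT17, with KRT4 and CRNN at 0 and KRT13 and SPRR3 at 1. S_PXT1 and S_PXT1_K118R also held fewer genes, 7393 and 7044 against 11492 to 11712 in the other 3. Every comparison of an S_PXT1 library with one of the other 3 therefore carries these differences, and their part in the results below was not tested. In bulk RNA, fewer cells of a type and less RNA per cell cannot be told apart.

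Promoters of respiratory chain genes are known for sites of NRF1, a transcription factor of mitochondrial biogenesis, and of GABP, an ETS-family factor. Of 96 protein-coding members without readthroughs, 94 were matched to 1 mouse gene by symbol or synonym, and 77 had a promoter in RefSeq's GRCm38.p6 table, 300 bases around the start of transcription. The palindromic NRF1 motif of 10 bases, spelled by the capitals in the sequences printed here and the same on both strands, occurred in 8.54% of the 82 member promoters and in 0.971% of all 32851 promoters. The letters CCGGAAGT, a GABP motif searched on both strands, occurred in 6.10% and 3.89%. The NRF1 letters were in the promoters of 7 members, and 3 of these had counts in every library. Their promoters are printed 5′ to 3′ with the NRF1 letters in capitals, as examples of promoters that hold the motif. They are Atp5g2 (ATP5MC2, minus strand, chr15:102670998-102671297), Cox6a1 (COX6A1, minus strand, chr5:115348909-115349208) and Uqcrc1 (UQCRC1, plus strand, chr9:108936398-108936697).
Atp5g2: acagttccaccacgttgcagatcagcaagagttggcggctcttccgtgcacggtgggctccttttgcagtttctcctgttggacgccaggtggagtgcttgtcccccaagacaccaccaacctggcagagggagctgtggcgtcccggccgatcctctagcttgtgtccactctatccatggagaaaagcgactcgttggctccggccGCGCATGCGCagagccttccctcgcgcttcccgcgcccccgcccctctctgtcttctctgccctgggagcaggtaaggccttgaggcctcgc
Cox6a1: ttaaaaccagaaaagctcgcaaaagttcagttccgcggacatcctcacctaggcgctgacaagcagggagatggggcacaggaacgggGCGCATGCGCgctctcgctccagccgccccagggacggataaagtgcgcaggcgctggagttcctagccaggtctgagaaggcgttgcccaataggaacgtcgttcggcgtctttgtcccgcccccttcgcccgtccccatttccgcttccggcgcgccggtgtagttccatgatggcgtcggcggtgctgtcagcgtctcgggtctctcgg
Uqcrc1: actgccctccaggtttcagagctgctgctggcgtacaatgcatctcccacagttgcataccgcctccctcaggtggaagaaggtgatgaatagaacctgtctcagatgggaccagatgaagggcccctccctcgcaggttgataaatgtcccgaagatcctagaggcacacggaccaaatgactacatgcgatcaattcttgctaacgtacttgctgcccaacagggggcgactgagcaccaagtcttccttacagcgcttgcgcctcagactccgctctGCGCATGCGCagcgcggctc
ATP5MC2, one of 3 genes for the same ATP synthase subunit, had 7, 14, 9, 4 and 4 counts in PMSCV, WT, WT_K118R, S_PXT1 and S_PXT1_K118R. COX6A1 had 5, 6, 5, 4 and 4 counts and UQCRC1 8, 10, 7, 2 and 7, in the same order. None of the 3 was called in any comparison. At such counts a difference of less than several fold was not detectable.

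Reads were concentrated in a few members. ATP5MC3, ATP5F1B and NDUFS1 held 77.2% of all member counts over the 5 libraries, and ATP5MC3 alone 45.5%. Only 9 members averaged 10 counts or more, 88 averaged at least 1 CPM and entered the comparisons, and 14 had 0 counts in every library. The map of member counts shows this steep fall from the leading genes to the rest. S_PXT1 and S_PXT1_K118R each had a count for 51 of the 102 members, against 76 for PMSCV, 70 for WT and 67 for WT_K118R. Thinned to 250409 counts, the smallest total, the expected numbers were 75.8 in PMSCV, 67.6 in WT, 64.3 in WT_K118R, 50.7 in S_PXT1 and 51.0 in S_PXT1_K118R, so a difference remained at equal totals. Over all genes the thinned numbers were 11283.5, 10596.5, 10455.6, 7304.9 and 7044.0.

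**Figure D1:**
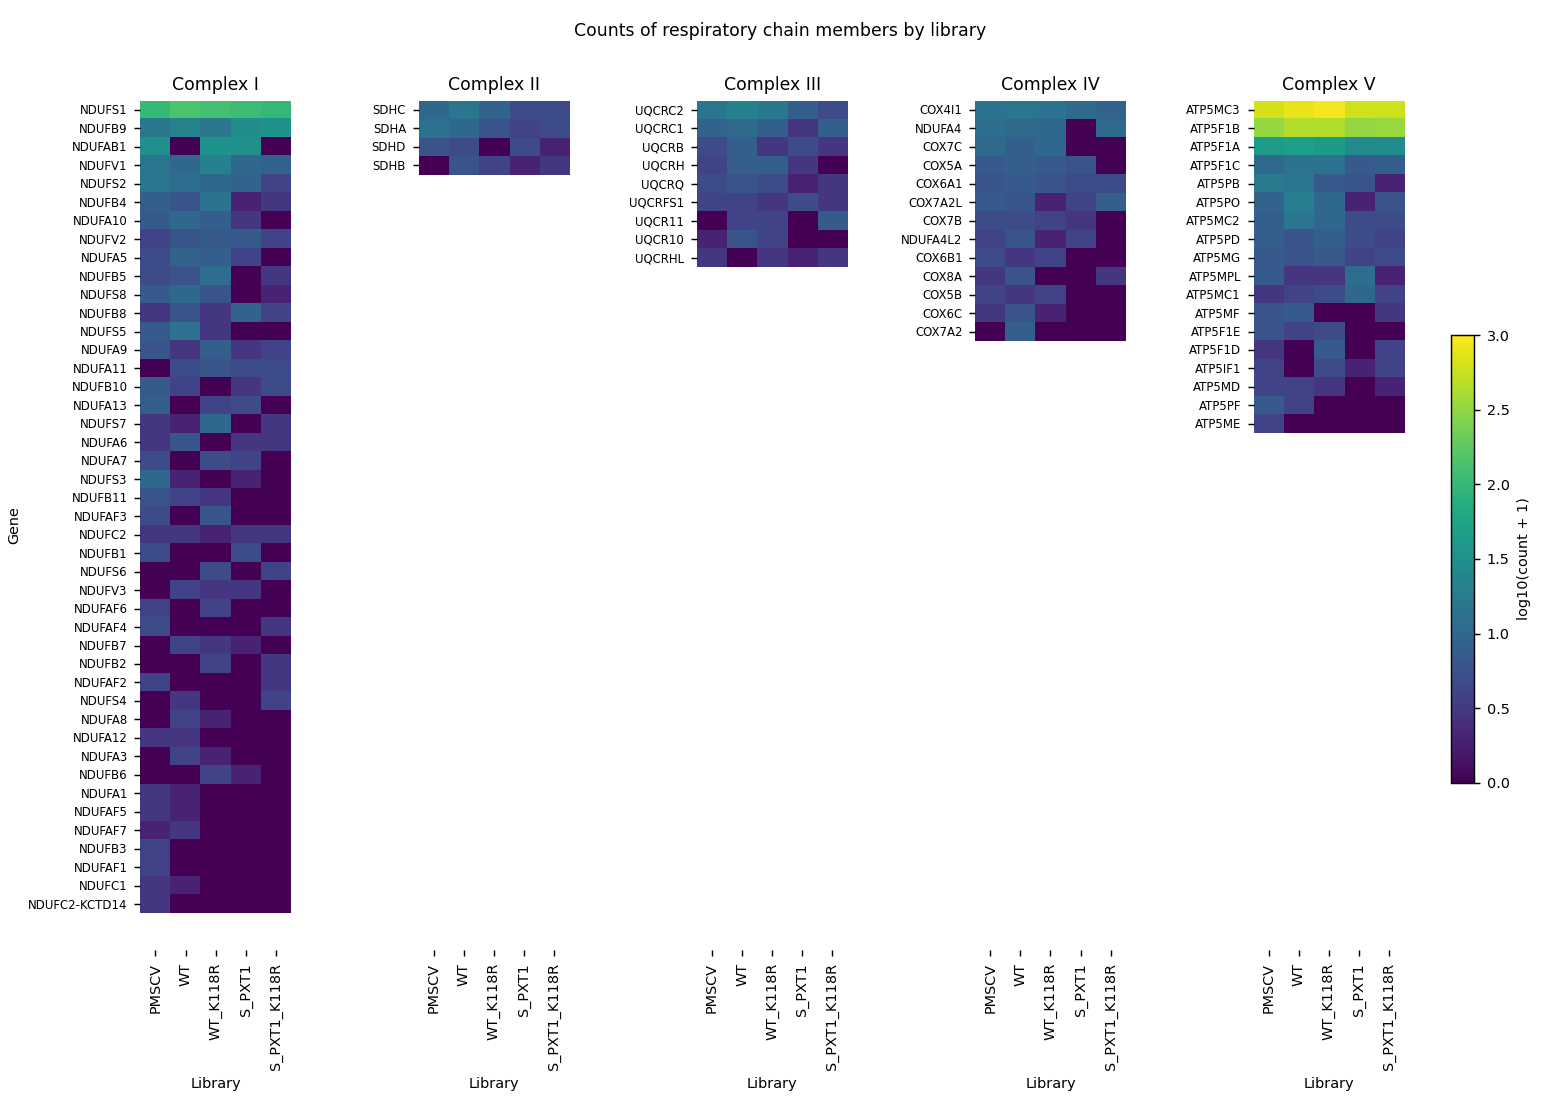
Counts of the 88 members that averaged 1 CPM or more, by complex, in the 5 libraries, as the log10 of the count plus 1 (colour). Genes are ordered by mean count within a complex. ATP5MC3, ATP5F1B and NDUFS1 stand out in every library, most members lie in the dark range of under 20 counts, and the S_PXT1 and S_PXT1_K118R columns hold more members at 0.

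The leading members were nearly level across the libraries. ATP5MC3 (chromosome 2, 175176258 to 175184607, in the human coordinates of the deposited table) encodes subunit c, which forms the rotating proton ring of ATP synthase. Its counts were 639, 793, 915, 609 and 612 in PMSCV, WT, WT_K118R, S_PXT1 and S_PXT1_K118R. These correspond to 2272, 2319, 2712, 2374 and 2406 CPM, with WT_K118R the highest and the other 4 close together. ATP5F1B (chromosome 12, 56638175 to 56646068), the catalytic beta subunit, had 336, 453, 450, 329 and 346 counts in the same order, or 1195, 1325, 1334, 1283 and 1360 CPM. NDUFS1 (chromosome 2, 206114817 to 206159603), the large iron-sulfur subunit of complex I, had 101, 140, 126, 113 and 99 counts, or 359, 409, 373, 440 and 389 CPM. The coefficient of variation of CPM over the 5 libraries was 7.15% for ATP5MC3, 4.98% for ATP5F1B and 8.08% for NDUFS1. The median over the 505 genes that averaged 100 counts or more was 11.6%, and the lower quartile was 8.91%. Relative to counting error the variance was 0.903 for ATP5F1B and 0.716 for NDUFS1, about what counting alone gives, and 4.01 for ATP5MC3, against a median of 3.15 for the 505 genes. Intervals from counting error are thus narrower than the spread most well-counted genes show between these libraries.

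Sums over all 102 members differed little. They were 1532, 1835, 1903, 1307 and 1272 counts in PMSCV, WT, WT_K118R, S_PXT1 and S_PXT1_K118R, or 5448, 5366.4, 5639.9, 5095.4 and 5000.5 CPM. The summed fold was 0.935 for S_PXT1 over PMSCV (exact 95% interval of the ratio of 2 counts 0.868 to 1.01), 0.985 for WT over PMSCV (0.920 to 1.05) and 0.949 for S_PXT1 over WT (0.884 to 1.02). For S_PXT1_K118R over WT_K118R it was 0.887 (0.825 to 0.952). Across the substitution it was 0.981 in the S_PXT1 pair (0.908 to 1.06) and 1.05 in the WT pair (0.985 to 1.12). All such intervals cover counting error only.

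Beneath the leading genes the libraries did differ. The 99 members other than ATP5MC3, ATP5F1B and NDUFS1 summed to 1621.6, 1313.1 and 1221 CPM in PMSCV, WT and WT_K118R, and to 998 and 845.2 CPM in S_PXT1 and S_PXT1_K118R. Their summed fold was 0.616 for S_PXT1 over PMSCV (0.526 to 0.719), 0.760 for S_PXT1 over WT (0.649 to 0.888) and 0.692 for S_PXT1_K118R over WT_K118R (0.584 to 0.818). The leading 3 had folds of 1.07 (0.983 to 1.17), 1.01 (0.932 to 1.10) and 0.940 (0.868 to 1.02) in these comparisons. A split of this kind was not particular to the members. For the 71 members with a mean of 1 to under 20 counts the folds were 0.579, 0.725 and 0.587, and for all 7910 genes in that range they were 0.519, 0.556 and 0.545. The intervals of the members reached 0.485 to 0.689, 0.607 to 0.864 and 0.483 to 0.712, and those for S_PXT1 over WT lay above the value of all genes. Without NDUFAB1, an accessory subunit described with complex I, that fold was 0.612 (0.507 to 0.737), which includes it.

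**Figure D2:**
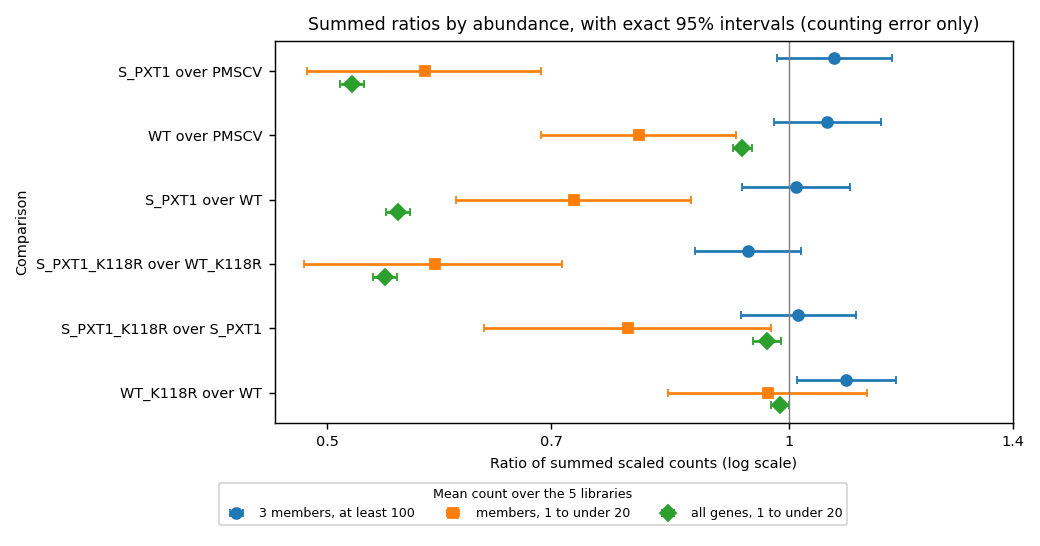
Ratio of summed scaled counts (log axis) in the 6 comparisons for the 3 leading members, for the 71 members with a mean of 1 to under 20 counts, and for all 7910 genes in that range, with exact 95% intervals for counting error. Where an S_PXT1 or S_PXT1_K118R library is set against one of the other 3, both low-count groups lie well below 1 and the leading members near 1.

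Complex I takes electrons from NADH and is the largest of the complexes. Its 46 members summed to 290, 281, 310, 238 and 183 counts in PMSCV, WT, WT_K118R, S_PXT1 and S_PXT1_K118R. The 7 nuclear core subunits, the conserved catalytic part of the enzyme, had summed folds of 1.01 for S_PXT1 over PMSCV (0.793 to 1.28) and 0.884 for S_PXT1_K118R over WT_K118R (0.693 to 1.12), with NDUFS1 supplying most counts. NDUFV1, the NADH-oxidising subunit, had 14, 9, 19, 9 and 8 counts, with the libraries overlapping. NDUFS8 had 6, 9 and 5 counts against 0 in S_PXT1 and 1 in S_PXT1_K118R. NDUFS3 had 9 counts in PMSCV and 0 or 1 in each other library, and NDUFS7 had 9 in WT_K118R and 0 to 2 elsewhere. NDUFS3 and the phosphatase gene PTPMT1 overlap on 1 strand, so reads may be divided between them.

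NDUFAB1 was present or absent rather than graded. This gene (chromosome 16, 23581002 to 23596356) encodes the mitochondrial acyl carrier protein, a subunit of complex I that also serves fatty acid synthesis and iron-sulfur cluster assembly. It had 31 counts in PMSCV, 33 in WT_K118R and 31 in S_PXT1, and 0 in WT and in S_PXT1_K118R. The 3 libraries with reads lay between 97.8 and 121 CPM, and 0 counts allow up to 3 in each of the other 2. With the substitution it was at least 10.2-fold lower in the S_PXT1 pair and at least 11.1-fold higher in the WT pair. The pattern crosses both the construct and the substitution, and no overlapping model on the same strand was found. NDUFAB1 moved the sum of its complex. The complex I fold was 0.775 (0.636 to 0.944) for S_PXT1_K118R over S_PXT1 and 0.797 (0.674 to 0.942) for WT over PMSCV. Without NDUFAB1 it was 0.892 (0.727 to 1.09) and 0.892 (0.751 to 1.06). Without both NDUFAB1 and NDUFS1 it was 0.901 (0.663 to 1.22) and 0.734 (0.581 to 0.927). The WT over PMSCV difference among the less counted members thus did not rest on NDUFAB1 alone.

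NDUFB9 was the member higher in both S_PXT1 libraries with the most counts. It (chromosome 8, 124539103 to 124568510) encodes an accessory subunit of the LYR family, whose members bind the acyl carrier protein. It had 15, 21 and 15 counts in PMSCV, WT and WT_K118R and 29 and 33 in S_PXT1 and S_PXT1_K118R. In CPM these are 53.3, 61.4 and 44.5 against 113 and 130, and the groups do not overlap. The fold was 2.12 for S_PXT1 over PMSCV (1.10 to 4.25) and 2.92 for S_PXT1_K118R over WT_K118R (1.54 to 5.78), comparisons that share no library, and 1.84 for S_PXT1 over WT (1.01 to 3.40). Both S_PXT1 libraries lay above each other library for 3 of the 88 members that entered, NDUFB9, NDUFA11 and NDUFC2, where 8.69% of all 13352 genes that entered did so. NDUFA11 had 0, 4, 5, 4 and 4 counts and NDUFC2 2, 2, 1, 2 and 2, so they stood apart by few reads. They lay below each other library for 23 members, 26.1% of those that entered, where 24.8% of all genes did so.

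Among the other accessory subunits of complex I, NDUFS5, on the intermembrane side, had 6, 12 and 2 counts in PMSCV, WT and WT_K118R and 0 in both S_PXT1 libraries. NDUFB4 had 7, 5 and 13 counts against 1 and 2. NDUFA10 had 6, 9, 7, 2 and 0 counts, NDUFA5 4, 8, 7, 3 and 0, and NDUFA13, also known as GRIM-19, 7, 0, 3, 4 and 0, in the usual order of libraries. The 8 assembly factors NDUFAF1 to NDUFAF8, which help build complex I without staying in it, summed to 20 counts in PMSCV, 3 in WT, 8 in WT_K118R, 0 in S_PXT1 and 4 in S_PXT1_K118R. PMSCV stood highest, with 7 of the 8 factors counted there and none above 5 counts in any library. The 34 complex I members outside the rule for named genes had 0 to 14 counts per library, and NDUFA2 and NDUFAF8 had none at all.

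Complex II, succinate dehydrogenase, is shared with the citric acid cycle and is encoded by nuclear genes alone. SDHA, the flavoprotein, had 12, 9, 5, 3 and 4 counts in PMSCV, WT, WT_K118R, S_PXT1 and S_PXT1_K118R, and SDHB, the iron-sulfur subunit, 0, 5, 3, 1 and 2. The membrane anchors SDHC and SDHD had 9, 14, 8, 4 and 4 and 5, 4, 0, 4 and 1 counts. Together they stood at 92.5 and 93.6 CPM in PMSCV and WT and at 47.4, 46.8 and 43.2 CPM in WT_K118R, S_PXT1 and S_PXT1_K118R. WT_K118R thus grouped with the S_PXT1 libraries here, with a fold of 0.507 over WT (0.260 to 0.951). For S_PXT1 over PMSCV it was 0.506 (0.233 to 1.04), an interval that includes 1. No single SDH gene was called in any comparison.

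Complex III passes electrons from ubiquinol to cytochrome c. UQCRC2, a core protein (chromosome 16, 21952660 to 21983660), had 14, 19, 15, 7 and 4 counts, and both S_PXT1 libraries lay below the other 3. The 9 members summed to 139, 173 and 133 CPM in PMSCV, WT and WT_K118R and 81.9 and 98.3 CPM in S_PXT1 and S_PXT1_K118R. The fold was 0.475 for S_PXT1 over WT (0.274 to 0.793) and 0.737 for S_PXT1_K118R over WT_K118R (0.433 to 1.23). UQCRH, the hinge protein, had 3, 7, 7, 2 and 0 counts and UQCR11 0, 3, 3, 0 and 6. The 6 members outside the rule for named genes, with the Rieske protein gene UQCRFS1 among them, had 0 to 10 counts per library.

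Complex IV, cytochrome c oxidase, reduces oxygen, and its catalytic subunits are mitochondrially encoded. The nuclear members had the lowest S_PXT1 level relative to PMSCV of the 5 complexes, with an interval that overlaps those of complexes II and III. The 19 members summed to 69, 79, 54, 27 and 31 counts in PMSCV, WT, WT_K118R, S_PXT1 and S_PXT1_K118R, or 245, 231, 160, 105 and 122 CPM. The fold was 0.429 for S_PXT1 over PMSCV (0.264 to 0.678), 0.456 for S_PXT1 over WT (0.283 to 0.713) and 0.761 for S_PXT1_K118R over WT_K118R (0.473 to 1.21). With the deposited FPKM values the S_PXT1 over WT fold was 0.298. Each interval includes the fold of all low-count genes given above, and WT_K118R was itself 0.693 of WT (0.481 to 0.992). The plot of summed levels per complex shows the 2 S_PXT1 libraries lowest in complexes III and IV.

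**Figure D3:**
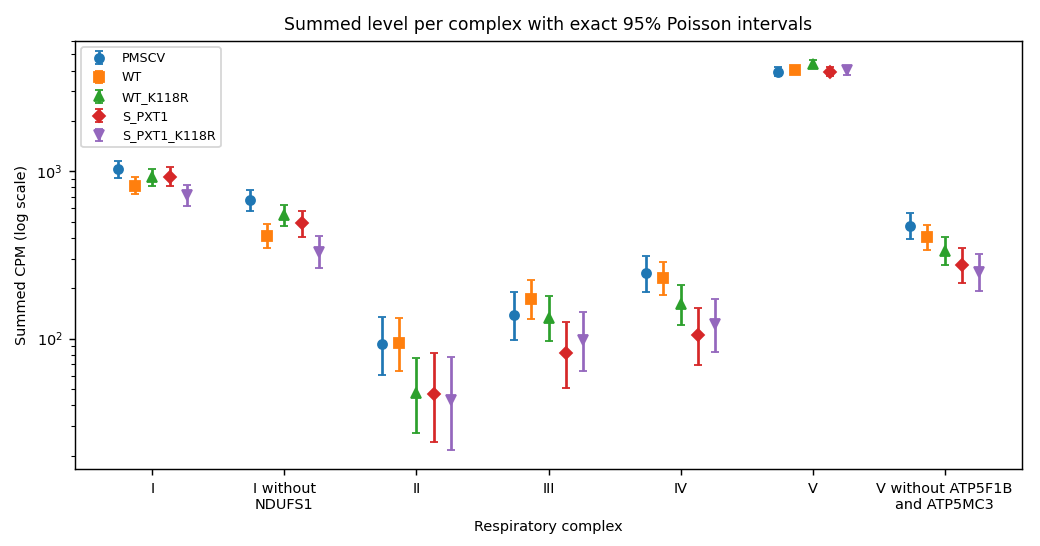
Summed CPM (log axis) of the members of each complex in the 5 libraries, with exact 95% Poisson intervals for counting error, and of complexes I and V without their leading genes. Complex V stays between 3933.7 and 4380.3 CPM, whereas complex IV ranges from 105 CPM in S_PXT1 to 245 CPM in PMSCV.

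COX4I1, a structural and regulatory subunit of complex IV, was even across the libraries, with 13, 14, 13, 10 and 8 counts or 46.2, 40.9, 38.5, 39.0 and 31.4 CPM. COX7C had 10, 7 and 9 counts in PMSCV, WT and WT_K118R and 0 in both S_PXT1 libraries, at least 3.04-fold lower in S_PXT1 than PMSCV and at least 2.26-fold lower in S_PXT1_K118R than WT_K118R. It was the 1 member called in the same direction in S_PXT1 over WT, where the bound is 1.75-fold, and in S_PXT1_K118R over WT_K118R. The share of all genes called in the same direction in both was not computed. NDUFA4, named for complex I but since assigned to complex IV, had 11, 10, 9, 0 and 10 counts, with S_PXT1 alone at 0. COX7A2 had 7 counts in WT and 0 elsewhere. COX7A2L, which takes part in joining complexes III and IV into supercomplexes, had 6, 5, 1, 3 and 7 counts. Among 88 members 8 had reads in each of the other 3 libraries and 0 in both S_PXT1 libraries, where 12.3% of all genes did so. The reverse pattern held for 0 members and for 0.532% of all genes. They were COX5B, COX6B1, COX6C and COX7C of complex IV, NDUFB11 and NDUFS5 of complex I, UQCR10 of complex III and ATP5F1E of complex V. The isoforms known from heart and muscle (COX6A2, COX7A1), lung (COX4I2) and testis (COX6B2, COX7B2, COX8C) had 0 counts in every library. NDUFA4L2, a paralogue known to be induced by low oxygen, had 3, 5, 1, 3 and 0 counts.

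Complex V differed little as a whole, with ATP5MC3 and ATP5F1B supplying most of its counts. The sum of 20 members was 1108, 1384, 1478, 1009 and 1022 counts in PMSCV, WT, WT_K118R, S_PXT1 and S_PXT1_K118R, a fold of 0.998 for S_PXT1 over PMSCV (0.916 to 1.09). The fold was 0.917 for S_PXT1_K118R over WT_K118R (0.846 to 0.994) and 1.08 for WT_K118R over WT (1.01 to 1.16). For WT_K118R over WT it was 0.965 without ATP5MC3, which thus sets its direction. Without both ATP5MC3 and ATP5F1B the fold was 0.585 for S_PXT1 over PMSCV (0.432 to 0.786). For S_PXT1_K118R over WT_K118R it was then 0.751 (0.544 to 1.03). ATP5F1A (chromosome 18, 46080248 to 46104334), the alpha subunit that alternates with beta in the catalytic head, had 44, 49, 42, 27 and 27 counts, or 157, 143, 124, 105 and 106 CPM. Both S_PXT1 libraries lay lowest, but no ratio reached 2-fold. ATP5F1D, in the central stalk, had 2, 0, 6, 0 and 3 counts.

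ATP5MC1 and ATP5MC2 encode the same mature subunit c as ATP5MC3, and division of reads among the 3 is uncertain. ATP5MC1 had 2, 3, 4, 9 and 3 counts, highest in S_PXT1. The 3 genes together had a fold of 1.05 for S_PXT1 over PMSCV (0.941 to 1.18) and 1.16 for WT_K118R over WT (1.05 to 1.28). The peripheral stalk, which holds the catalytic head still, was lower in S_PXT1. Its 4 genes summed to 37, 40, 22, 10 and 9 counts, with folds of 0.296 for S_PXT1 over PMSCV (0.131 to 0.608) and 0.543 for S_PXT1_K118R over WT_K118R (0.220 to 1.23). Both intervals include the folds of all low-count genes, 0.519 and 0.545. WT_K118R was also lower than WT, at 0.557 (0.316 to 0.961). ATP5PB had 16, 14, 6, 5 and 1 counts, ATP5PO 8, 18, 9, 1 and 5, and ATP5PF 6, 3, 0, 0 and 0. ATP5MPL, a small membrane subunit, had 6, 2, 2, 11 and 1 counts, and ATP5MF 5, 6, 0, 0 and 2. ATP5MF overlaps PTCD1 and a readthrough model on 1 strand. The 10 members of complex V outside the rule for named genes had 0 to 14 counts per library, and ATP5IF1, the inhibitor of ATP synthase, had at most 4.

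**Figure D4:**
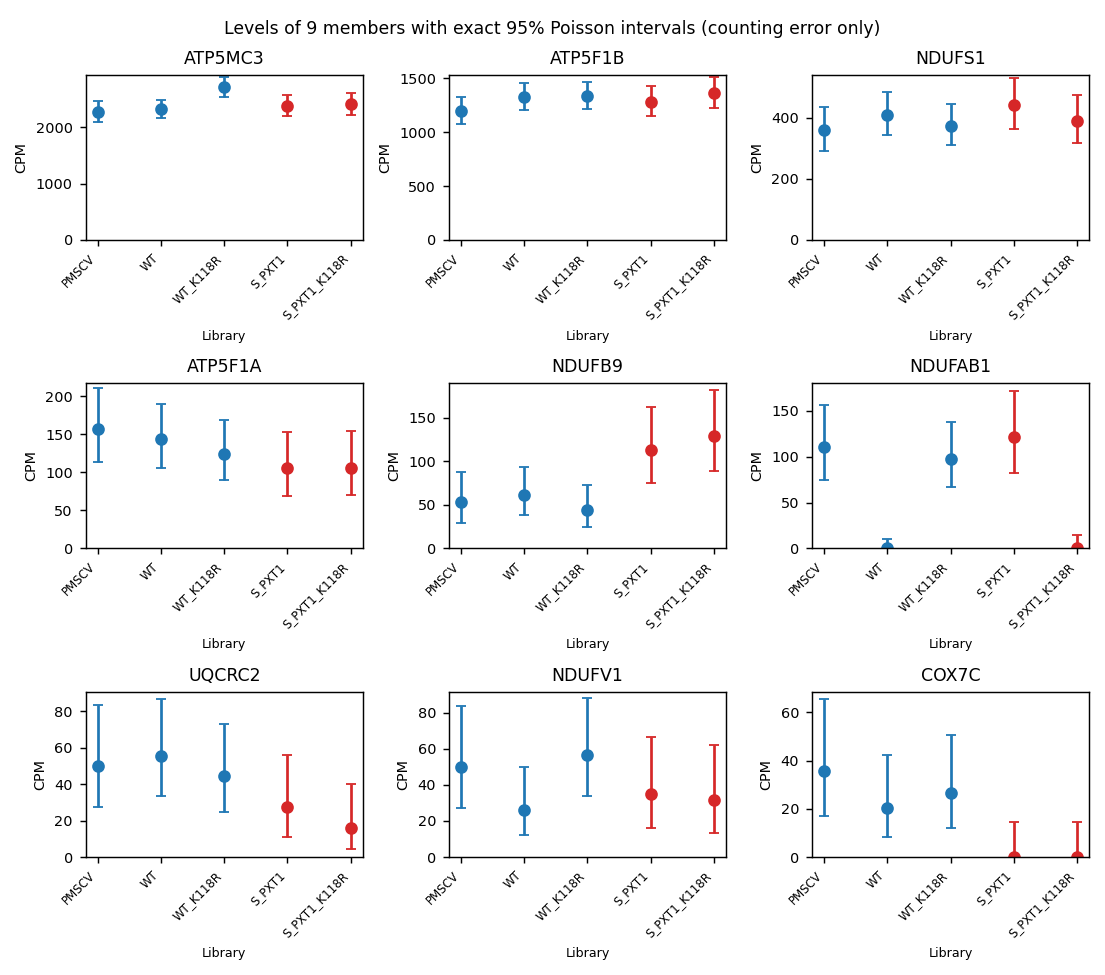
CPM of 9 members in the 5 libraries, with exact 95% Poisson intervals for counting error (blue: PMSCV, WT and WT_K118R, red: S_PXT1 and S_PXT1_K118R). ATP5MC3, ATP5F1B and NDUFS1 are level, NDUFB9 is higher and COX7C is at 0 in both S_PXT1 libraries, and NDUFAB1 is at 0 in WT and S_PXT1_K118R.

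Single members were called where the ratio of scaled counts was at least 2-fold and its interval excluded 1. A ratio against 0 counts was taken as past 2-fold, although 0 counts allow up to 3. In S_PXT1 over PMSCV, 2 of 88 members were higher (NDUFB9, ATP5MC1), where 0.861% of all genes were, and 7 were lower (NDUFS8, ATP5PB, COX7C, ATP5PF, NDUFS5, NDUFA4, NDUFS3), where 7.34% of all genes were. In WT over PMSCV 1 member was higher (COX7A2; all genes 1.45%) and 3 were lower (NDUFAB1, NDUFA13, NDUFS3; all genes 2.28%). In S_PXT1 over WT 2 were higher (NDUFAB1, ATP5MPL; all genes 0.749%) and 6 lower (NDUFS8, COX7A2, COX7C, NDUFS5, NDUFA4, ATP5PO; all genes 6.31%). In S_PXT1_K118R over WT_K118R 2 were higher (COX7A2L, NDUFB9; all genes 0.801%) and 6 lower (NDUFAB1, NDUFB4, COX7C, NDUFA5, NDUFA10, UQCRH; all genes 6.54%). With 0 counts set to 3, the bound was under 2-fold for NDUFS8, ATP5PF and NDUFS5 in S_PXT1 over PMSCV, for COX7A2 in WT over PMSCV, for COX7A2 and COX7C in S_PXT1 over WT, and for NDUFA5, NDUFA10 and UQCRH in S_PXT1_K118R over WT_K118R. With library sizes scaled by total counts alone, NDUFB9 and ATP5MC1 were no longer called higher in S_PXT1 over PMSCV, and ATP5PO and SDHA were called lower there. The lower counts, at 6.82% to 7.95% of the members in comparisons with an S_PXT1 library, are near the background. The higher counts rest on 2 genes each.

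Across the substitution the calls were few. In S_PXT1_K118R over S_PXT1, 2 members were higher (UQCR11, NDUFA4; all genes 1.15%) and 2 lower (NDUFAB1, ATP5MPL; all genes 1.27%). In WT_K118R over WT, 3 were higher (NDUFAB1, ATP5F1D, NDUFS7; all genes 1.91%) and 3 lower (COX7A2, NDUFS5, ATP5MF; all genes 2.40%). For ATP5MF the bound with 0 counts set to 3 was under 2-fold. NDUFAB1 was the 1 member called in both, and in opposite directions. How many of all genes were called in opposite directions was not computed. Outside the members, MT-ND4 had 3, 625, 665, 2 and 203 counts in PMSCV, WT, WT_K118R, S_PXT1 and S_PXT1_K118R. MT-ND4L had 103, 1, 0, 63 and 0 in the same order. These 2 genes ran opposite to each other, and overlap of models was searched for members alone. Division of reads between them was therefore not told from a change in level. The marker SPI1 had 113, 173, 1, 139 and 128 counts in the same order. A switch between many counts and near 0 was thus not particular to NDUFAB1. Most calls rest on fewer than 20 counts, and a single count corresponds to several CPM.

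Medians over the 88 members were set beside all genes, as log2 ratios of CPM plus 1. For S_PXT1 over PMSCV the median was -0.82 for members and -0.56 for all 13352 genes. For members it was 0 in each of the 6 comparisons once 0 counts were set to a bound of 3 counts. For WT over PMSCV the medians were -0.21 against -0.03, for S_PXT1 over WT -0.41 against -0.48, and for S_PXT1_K118R over WT_K118R -0.26 against -0.49. For S_PXT1_K118R over S_PXT1 both medians were 0, and for WT_K118R over WT they were -0.22 and 0.01. These last 2 comparisons share no library with each other.

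Other genes of mitochondrial respiration were examined as lists. Of 8 matched electron carriers and subunits outside the name rule, CYCS, cytochrome c itself, had 9, 12, 17, 9 and 4 counts in PMSCV, WT, WT_K118R, S_PXT1 and S_PXT1_K118R, and CYC1, cytochrome c1 of complex III, 2, 9, 5, 2 and 6. ETFA, an electron transfer flavoprotein subunit, was the 1 gene of this list called in S_PXT1 over PMSCV. It was lower, with 2 counts against 13, where 7.34% of all genes were lower. ETFA was also lower in S_PXT1 over WT, at 2 against 14, beside 6.31% of all genes. CYCS was called lower in S_PXT1_K118R over WT_K118R, at 4 against 17, beside 6.54%. The 41 assembly factors outside the name rule summed to 77, 98, 77, 33 and 22 counts. Of the 35 that entered, 0 were higher and 1 was lower in S_PXT1 over PMSCV, where 7.34% of all genes were lower. This was ATPAF1, a chaperone of ATP synthase, at 10, 13, 10, 0 and 0 counts. FOXRED1, at 5 counts against 0, was higher in S_PXT1 over WT and ATPAF1 lower, beside 0.749% and 6.31% of all genes. ATPAF1 and TTC19 were lower in S_PXT1_K118R over WT_K118R, beside 6.54%. Of 18 citric acid cycle genes, 0 were higher and 6 lower in S_PXT1 over PMSCV, where 0.861% and 7.34% of all genes were, and MDH2 among them had 8 counts against 23. In S_PXT1 over WT 0 were higher and 5 lower, beside 0.749% and 6.31% of all genes. In S_PXT1_K118R over WT_K118R 0 were higher and 2 lower, DLAT and DLD, beside 0.801% and 6.54% of all genes. IDH3G and SUCLG1, lower in S_PXT1 over PMSCV at 0 counts, had 14 and 8 counts in S_PXT1_K118R. Both were called higher in S_PXT1_K118R over S_PXT1, where 1.15% of all genes were. The summed fold of this list for S_PXT1 over PMSCV was 0.852 (0.717 to 1.01), with OGDH supplying most counts at 184 against 165. Of the 13 regulators of mitochondrial biogenesis that entered, among them NRF1 with 17, 19, 24, 12 and 17 counts, 0 were called in any of the 6 comparisons. The sum of the 16 matched regulators was 1.48-fold higher in WT_K118R than WT (1.33 to 1.66). It was 0.750 for WT over PMSCV (0.666 to 0.844), 1.29 for S_PXT1 over WT (1.14 to 1.45) and 0.766 for S_PXT1_K118R over WT_K118R (0.681 to 0.862). YY1, a general zinc finger factor, held most counts of this list in every library. It supplied most of the rise from WT to WT_K118R, at 544 counts against 312. In the usual order of libraries YY1 stood at 1469, 912, 1612, 1244 and 1077 CPM. It thus moved in the direction of the sum in each of these comparisons. The folds chiefly describe YY1, and the sum of the other regulators was not compared. The 13 mitochondrially encoded subunits, partners of the members in complexes I, III, IV and V, had folds of 0.553 for S_PXT1 over PMSCV (0.516 to 0.592) and 0.450 for S_PXT1_K118R over WT_K118R (0.421 to 0.481), where the nuclear members summed to 0.935 and 0.887 and those without the 3 leading genes to 0.616 and 0.692.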

How the data were processed

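The deposited table gives, per the file headers, a read count for every gene in each library. It also gives FPKM, the authors' own scaling by transcript length and depth, per the file headers. Tools named in the submitters' processing notes, with no role or order, are cutadapt 1.9, HISAT2 2.2.1 and FastQC. The counter, strand setting, genome build and annotation were not given in the sources used here. No value column was without a library (0). The same table has 232 rows with a count of 1 in all 5 libraries.

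Library sizes were scaled with TMM (edgeR 4.0.16, R 4.3.3). Ratios of 2 libraries carry exact 95% intervals of 2 Poisson counts, which cover counting error only. PCR copies of a molecule cannot be told from separate molecules, so the intervals may be too narrow even for that error. A fold against 0 counts was computed against 3 counts in that library and is written "at least". Genes that averaged 1 CPM or more entered, and log2 ratios used a pseudocount of 1 CPM. With 1 library per group no test across libraries was made. The ratio step was tested on simulated Poisson counts, which hold no spread beyond counting error, unlike most well-counted genes here. That test therefore checks the computation and not how calls behave under the spread between these libraries.

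Members that averaged 10 counts or more, or were called in any of 6 comparisons, are given in every library. The SDH genes, other genes named with values beyond this rule and the members with NRF1 promoter letters were added after their values were seen. NDUFA4 and NDUFA4L2 were placed in complex IV. The members and lists were chosen with earlier results of these data known. Of the marker lists, 13 early B lineage, 7 squamous, 8 muscle, 4 plasma cell and 4 prostate genes were matched. Alternatives were DESeq2 1.42.0 size factors, total counts, FPKM, other thresholds, filters and pseudocounts, and summing of overlapping models.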

Additional observations from a re-analysis of the deposited data

Results flagged for a closer look

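NDUFAB1, the mitochondrial acyl carrier protein gene, moved in opposite directions with the K118R substitution in the S_PXT1 and WT pairs, which share no library. Its log2 ratio of CPM plus 1 was -6.93 for S_PXT1_K118R over S_PXT1 and 6.63 for WT_K118R over WT. NDUFAB1 had 31 counts in S_PXT1 and 33 in WT_K118R, but 0 in S_PXT1_K118R and in WT. The size of both ratios therefore depends on the added 1 CPM. The smaller "at least" folds given above for NDUFAB1 in these pairs do not depend on it. With 1 library per group the difference between the pairs was not tested.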

How the results depend on the processing

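No paired analysis was possible because each group held 1 library. For the same reason no replicate could be left out, and low depth limits every result on single members. The alternatives without the leading genes, without NDUFAB1, for the low-count members alone, for genes averaging 5 counts or more and with 0 counts set to 3 were chosen after seeing the data. The summed fold of all members was 0.781 with FPKM and 0.857 without ATP5MC3 for S_PXT1 over PMSCV. It was 0.909 with total counts, which shift all genes by -0.12 on the log2 scale, and 0.898 with FPKM for WT over PMSCV. It was 0.871 with FPKM for S_PXT1 over WT, and for WT_K118R over WT 0.966 with FPKM and 0.961 without ATP5MC3. Without the 3 leading genes the 6 summed folds, for S_PXT1 over PMSCV and over WT, WT over PMSCV, S_PXT1_K118R over WT_K118R and over S_PXT1, and WT_K118R over WT, were 0.616, 0.760, 0.810, 0.692, 0.847 and 0.930. With members of a mean of 1 to under 20 counts alone they were 0.579, 0.725, 0.798, 0.587, 0.785 and 0.969. The complex V fold for WT_K118R over WT, 1.08, turned to 0.965 without ATP5MC3 and to 0.830 without its leading genes. These changes follow from which members enter the sum, and for FPKM and total counts the cause was not tested. The number of members called in the same 6 comparisons, 9, 8, 4, 8, 4 and 6 in all, was 50, 47, 35, 43, 38 and 39 at 2-fold with no interval. Among members averaging 20 counts or more it was 1, 0, 0, 1, 0 and 0, and among those averaging 5 or more 4, 4, 1, 4, 2 and 1, since fewer genes entered. The shares of all genes called at these settings are not given here, so these totals are no result about the members. With 0 counts set to 3 the number of members called was 6, 6, 3, 5, 4 and 5. The first was 2 higher and 4 lower, beside 0.779% and 6.11% of all genes. The other alternatives moved these totals by less than 1.5 times. With total counts the split for S_PXT1 over PMSCV went from 2 higher and 7 lower to 0 and 9, beside 0.667% and 7.91% of all genes. At 3-fold it was 1 and 6, beside 0.637% and 6.86%. NDUFB9 was lost there and in S_PXT1_K118R over WT_K118R. The complex IV fold for S_PXT1 over WT was 0.298 with FPKM. The median of members moved by 0.1 or more on the log2 scale in 15 of its alternatives over the 6 comparisons and by less in 27.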
